A study of Bos taurus with 16 samples.

Results

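Endometrial cells from dairy cows that received rumen-protected methionine (RPM) were compared with cells from cows on the control diet, among cows that became pregnant after insemination. The comparison held the 8 libraries of these cows, 4 of MET_P (RPM, pregnant) and 4 of CON_P (control diet, pregnant), out of 16 libraries of the series, all taken by their group label. The other 8 libraries, 4 of CON_noP and 4 of MET_noP, came from cows that did not become pregnant and were used to set methylation classes and to test whether the diet difference depended on the outcome. All cows were postpartum multiparous Holstein-Friesians, RPM was fed from day 12 postpartum, and cells were brushed from the endometrium 4 to 8 h after insemination on days 50 to 64 postpartum, before the outcome was known. Methylation was measured by reduced representation bisulfite sequencing (RRBS), in which fragments cut at CCGG are sequenced, and 189036 of the 199395 measured positions were autosomal and were described here.

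Methionine is converted in the methionine cycle to S-adenosylmethionine, the methyl donor that DNA methyltransferases use to place 5-methylcytosine on CpG sites. Dense CpG islands at promoters are usually little methylated and gene bodies are usually highly methylated, and imprinted regions carry the mark on the allele of a single parent. The endometrium is the uterine lining that receives the embryo, and a brush collects mainly its surface epithelium together with leukocytes. A shift in the mix of these cells and a shift of methylation within a cell type cannot be told apart in such samples.

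Each value was the percentage of reads that read as methylated at a position in a library. A library was treated as a replicate. By the study's text, 8 cytobrush samples a group stood behind the 4 libraries of CON_P and of MET_P, and more behind those of CON_noP and of MET_noP. How they were divided among libraries is not given in the sources used here, so p-values measure the spread between these libraries. The read counts were not used here, so the depth is unknown, and the study's text gives a far higher number of mapped CpG calls for MET_P than for CON_P. Every position had a value in every library, the lowest value was 1%, and positions at 0% were absent because the authors removed them, which limits what can be seen at unmethylated islands.

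The mean methylation level of the autosomal sites differed between diets by less than the spread between libraries. In CON_P it was 66.2%, 65.6%, 63.5% and 63.5% in libraries S14, S18, S26 and S30. In MET_P it was 65.7%, 64.6%, 64.7% and 64.9% in libraries S15, S19, S27 and S31, all inside the CON_P range. The group means were 64.7% ± 1.43 (SD, n = 4) for CON_P and 65.0% ± 0.496 for MET_P, which lay 0.304 percentage points apart (two-sided exact permutation test, p = 0.714, adjusted p = 0.938 over 24 comparisons with 1 value per library). With 4 libraries against 4, the smallest exact p is 0.0286. The share of sites above 20% methylation was 81.1% in CON_P and 81.4% in MET_P (exact p = 0.857). Sites above 80% made up 49.2% ± 1.78 in CON_P and 50.5% ± 0.556 in MET_P (exact p = 0.143), and CON_P library S26 stood low at 46.6%.

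Classes of sites by methylation level were set on the mean of the 8 libraries without pregnancy, so that they did not depend on the difference they were used to describe. No class mean passed the test. The difference, MET_P minus CON_P, was 0.6 percentage points at the 15718 sites under 10% (8.08% and 8.68%, exact p = 0.171). It was -0.691 at the 30922 sites of 10 to under 30% and 0.0185 at the 36278 sites of 30 to under 70%. At the 34705 sites of 70 to under 90% it was 1.22 (82.1% and 83.3%, exact p = 0.171), and at the 71413 sites of 90% and over it was 0.371 (exact p = 0.229). At 10 to under 30% the CON_P libraries lay at 23.7%, 21.1%, 19.2% and 15.6%, and the MET_P libraries at 20.6%, 18.3%, 18% and 20.04%, inside them.

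**Figure D1:**
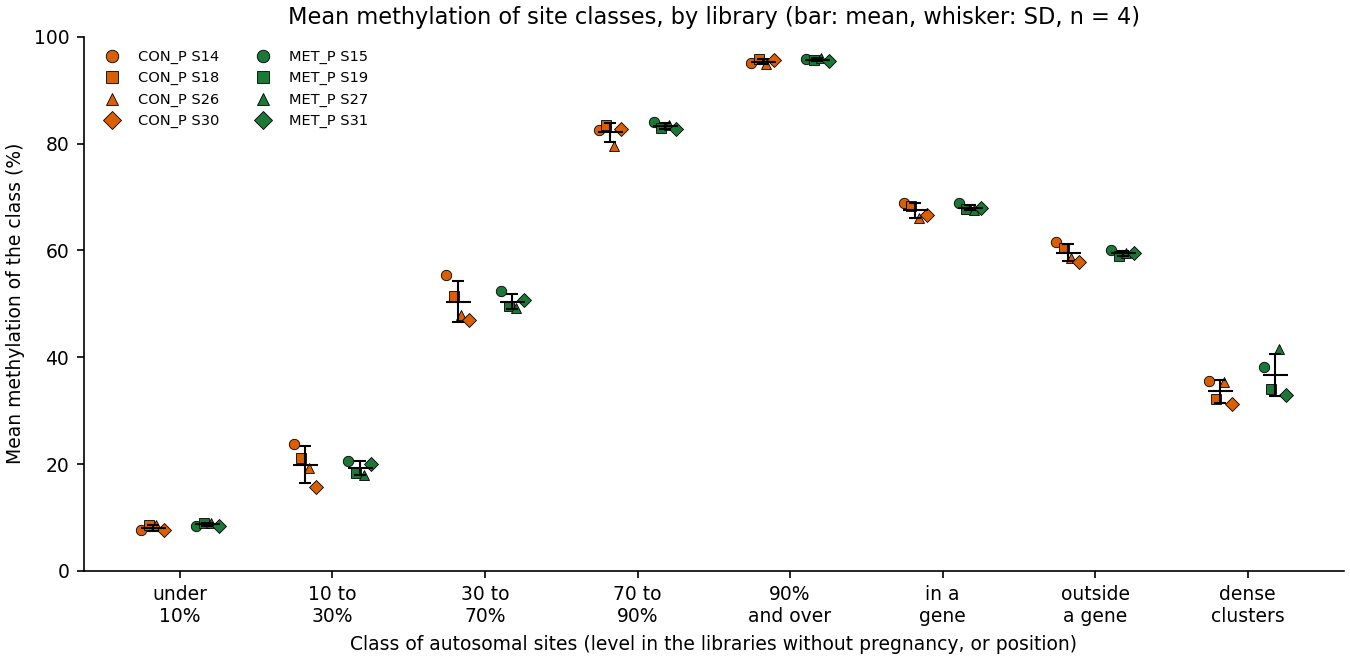
Mean methylation in percent of classes of autosomal sites, with 1 point per library (symbols name the library), a bar for the group mean and a whisker for the SD of 4 libraries. CON_P and MET_P overlap in every class, and at 10 to under 30% the CON_P libraries span 15.6% to 23.7% and the MET_P libraries 18% to 20.6%.

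Position gave a similar picture. The 121988 sites inside an annotated gene averaged 67.5% ± 1.33 in CON_P and 68.0% ± 0.548 in MET_P (exact p = 0.486), and the 67048 sites outside a gene averaged 59.6% ± 1.66 and 59.5% ± 0.460 (exact p = 0.914). Sites in the last 5 Mb of a chromosome had a difference of -0.289 percentage points and the rest of the chromosome 0.632 (exact p = 0.8 and p = 0.4). Neighbouring sites with gaps of at most 100 bp were joined to clusters, which gave 18531 single sites, 34247 clusters of 2 to 9 sites, 2720 of 10 to 49 sites and 17 of 50 or more sites. The dense clusters, with 2137 sites, had the widest difference of the position classes, 33.6% ± 2.24 in CON_P and 36.6% ± 3.97 in MET_P (exact p = 0.257). They held the library values 35.6%, 32.2%, 35.4% and 31.2% in CON_P and 38.1%, 34.0%, 41.5% and 32.8% in MET_P, which overlapped. Mean methylation was higher in MET_P on 20 of 29 autosomes, with differences from -0.365 to 1.27 percentage points, and the lowest adjusted p of the 29 exact tests was 0.943.

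The 3 largest clusters held 486, 415 and 310 sites and lay side by side on chromosome 27 (6219560 to 6225679, build ARS-UCD1.2). The cluster of 415 was annotated at 31 of its sites as RF00002, the 5.8S ribosomal RNA family. Those of 486 and 310 had no annotated gene. Copies of such repeats share reads, so their values are uncertain. Most of the 2137 sites of the dense clusters lay in these 3, so the values of that class mainly describe this locus. The largest averaged 21.4% ± 3.46 in CON_P and 24.5% ± 7.09 in MET_P. A cluster of 90 sites inside IGF2R (chromosome 9, 96222078 to 96223066), which encodes the mannose 6-phosphate and IGF2 receptor and is imprinted, stood at 47.1%, 36.8%, 37.2% and 38.1% in CON_P and at 50.9%, 44.4%, 45.5% and 47.4% in MET_P. Library S14 of CON_P lay among the MET_P libraries, and the difference of 7.24 percentage points had an exact p of 0.0857. Clusters in ADRA2C, an adrenergic receptor gene, and IGF1R, the IGF1 receptor gene, differed by 0.892 and -0.549 percentage points, within their spread.

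The libraries of MET_P resembled each other more than those of CON_P did. The spread of a library was taken as the mean absolute difference of its sites from the mean of the other 3 libraries of its group. It was 7.17, 7.24, 7.51 and 7.73 percentage points in the CON_P libraries S14, S18, S26 and S30, and 6.03, 5.27, 5.61 and 5.43 in the MET_P libraries S15, S19, S27 and S31. Every MET_P library lay below every CON_P library. The means were 7.41 ± 0.256 and 5.58 ± 0.33 (SD, n = 4), a difference of -1.83 (exact p = 0.0286, adjusted p = 0.098), so the difference did not pass after adjustment. The 4 values of a group share their libraries, and when the spread was recomputed at each permutation the exact p was 0.0571. In cows without pregnancy the spread was 6.22 ± 0.733 in CON_noP (5.43 to 6.87) and 6.65 ± 1.16 in MET_noP (5.64 to 7.72). Both means lay between those of MET_P and CON_P, and both ranges overlapped that of MET_P.

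By methylation level, the spread was widest where sites were partly methylated. At 30 to under 70% it was 13.02 ± 1.12 percentage points in CON_P and 9.44 ± 0.571 in MET_P. At 10 to under 30% it was 8.86 ± 1.0 and 6.72 ± 0.411, and at 70 to under 90% it was 8.90 ± 0.705 and 6.59 ± 0.365. The groups did not overlap in any of these classes nor at 90% and over (4.01 and 3.06), each with an exact p of 0.0286 and an adjusted p of 0.098. With a MET_P library left out, the exact p was 0.0571 to 0.0857 at 10 to under 30% and 0.0571 at 90% and over (any of the 4 libraries), and 0.0571 at 70 to under 90% (S19, S27 or S31). At sites under 10% the values overlapped, 3.78 ± 0.155 in CON_P and 3.68 ± 0.278 in MET_P (exact p = 0.543).

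**Figure D2:**
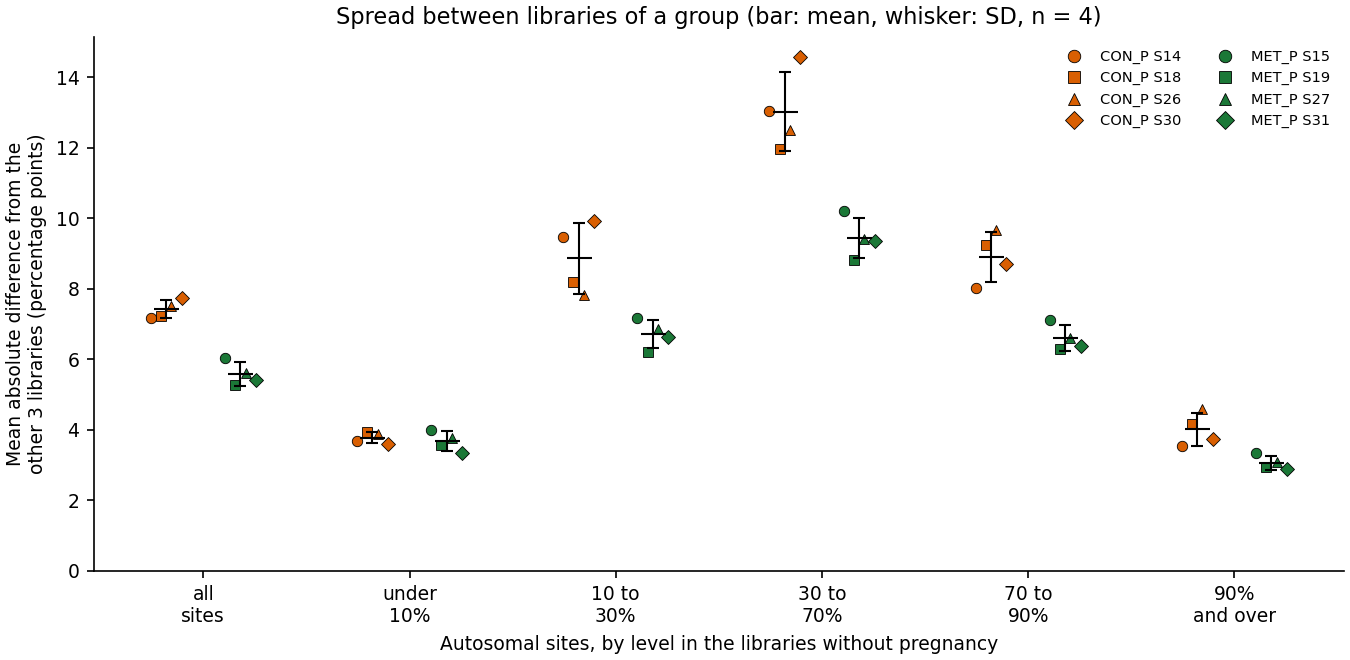
Mean absolute difference of each library from the mean of the other 3 libraries of its group, in percentage points, over all autosomal sites and by methylation class, with bars for the mean and whiskers for the SD of 4 libraries. The MET_P points lie below the CON_P points over all sites (5.27 to 6.03 against 7.17 to 7.73) and in every class but that under 10%.

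The narrower spread was also seen in means over many sites, where the reads of neighbouring positions are combined. Over the 3295 genes with at least 10 sites it was 3.42 ± 0.277 percentage points in CON_P and 2.24 ± 0.18 in MET_P. Over the 408 genes with at least 50 sites it was 2.90 ± 0.572 and 1.75 ± 0.246, and over the 3261 windows of 1 kb with at least 10 sites 4.90 ± 0.633 and 3.31 ± 0.207 (exact p = 0.0286 for each). These comparisons were added after seeing the data, and their p-values were not adjusted. They use the same libraries as the spread of sites, and their spread was not recomputed at each permutation. The median SD of a site was 5.75 percentage points in CON_P and 4.45 in MET_P, and it was lower in MET_P at 64.5% of the sites. The dense clusters, with most of their sites at the locus on chromosome 27, went the other way. The SD was lower in MET_P at only 35.1% of their sites. Sites whose 4 libraries spanned over 50 percentage points numbered 3249 in CON_P (1.72%) and 881 in MET_P (0.466%). The SD of the mean level of a chromosome was lower in MET_P on 28 of 29 autosomes, chromosome 27 being the exception. The autosomes were measured in the same libraries. This count is therefore not independent of the SDs of the mean over all autosomal sites, 1.43 in CON_P and 0.496 in MET_P.

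The share of sites at exactly 100%, which a low number of reads raises, was 9.03%, 18.8%, 19.1% and 13.1% in the CON_P libraries and 13.6%, 8.998%, 11.9% and 7.18% in the MET_P libraries, and MET_P had the higher number of CpG calls. The part of depth in the spread was not tested. The mean level of the epithelial gene list spanned 33.3% to 43.2% in CON_P and 33.8% to 38.2% in MET_P, and that of the leukocyte list 57.5% to 64.6% and 60.5% to 62.0%. The part of cell mix in the spread was likewise not tested. Library S30 of CON_P was on average 5.98 percentage points from the mean of 3 MET_P libraries and 7.73 from the mean of its own group, whereas S14, S18 and S26 were 7.49, 7.20 and 8.13 from MET_P.

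Among genes with at least 5 sites, 249 of 5464 had an SD over 10 percentage points in CON_P and 59 in MET_P. PNMT, which methylates noradrenaline to adrenaline with S-adenosylmethionine, had the largest fall in SD from CON_P to MET_P and was named for it after its values were seen. Its 14 sites averaged 73.6%, 85.5%, 38.2% and 82.5% in CON_P and 83.6%, 82.2%, 81.7% and 81.6% in MET_P. A single library, S26, made up most of the CON_P range. ATF6, a sensor of unfolded proteins in the endoplasmic reticulum, stood at 82.9%, 40.0%, 50.4% and 87.9% in CON_P and at 75.3%, 77.1%, 80.3% and 67.1% in MET_P. In the other direction, the SD of TTC22 was 5.56 in CON_P and 14.2 in MET_P, and that of ECI2, an enzyme of fatty acid oxidation, was 3.21 and 10.7.

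Single sites were then tested with limma on M values, which set the methylated against the unmethylated percent on a log2 scale. None of the 189036 autosomal sites had an adjusted p under 0.05 (0.0% called), with 0.208 as the lowest adjusted p. Without adjustment, 11227 sites (5.94%) had a p under 0.05. Of these, 5780 were higher (3.06%) and 5447 lower (2.88%) in MET_P. When the libraries were centred on the same median M value, the split became 4099 higher and 7255 lower, since the median site stood 0.12 higher in MET_P on the M scale. Without library S30 the sites numbered 18750, of which 44.3% were higher. The libraries did not overlap at 5721 sites (3.03%), 3438 higher (1.82%) and 2283 lower (1.21%) in MET_P. The median absolute difference was 2.94 percentage points, and 2632 sites (1.39%) differed by over 20.

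By class, the sites at an unadjusted p under 0.05 are given as a description without a test, beside 5.94% of all sites. They made up 3.28% of the sites under 10%, 378 higher and 137 lower in MET_P. At 10 to under 30% they were 3.54%, 615 higher and 481 lower, and at 30 to under 70% they were 5.55%, 1131 and 884. At 70 to under 90% they were 6.12%, 1328 higher and 795 lower, and at 90% and over 7.67%, 2328 and 3150. In a gene 6.26% met the threshold, 4068 higher and 3569 lower, and outside a gene 5.35%, 1712 and 1878. In the dense clusters, with most of their sites at the locus on chromosome 27, the share was 2.71%, with 51 higher and 7 lower.

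The named sites were the 3 in each direction with the largest difference among those without overlap and with an unadjusted p under 0.05 (4165 sites, 2.2% of all), and had adjusted p between 0.326 and 0.827 by limma. A site in TTLL2, a tubulin-modifying ligase gene (chromosome 9, 101984249), was at 28.8%, 12%, 42.9% and 37.5% in CON_P and at 64.7%, 94.3%, 70.2% and 100% in MET_P. The site at 8528604 on chromosome 3, in no annotated gene, averaged 42.9% ± 22.9 and 93.7% ± 7.56. In FHDC1, which encodes a formin that binds actin and microtubules, the site at 4673810 on chromosome 17 was at 21.4%, 27.3%, 13.6% and 36.4% in CON_P and at 87.0%, 68.4%, 74.2% and 66.7% in MET_P. In TTLL2 and FHDC1 the nearest libraries of the groups were over 20 percentage points apart. The sites lower in MET_P had no gene annotated at their position, at 858296 on chromosome 25 (69.5% ± 11.8 and 25.8% ± 9.0), at 58588127 on chromosome 22 (71.4% ± 20.03 and 34.3% ± 14.1) and at 49566959 on chromosome 26 (59.4% ± 17.2 and 22.7% ± 12.9).

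Windows of 1 kb with at least 3 sites gave 0 of 25584 past the threshold (0.0% called, lowest adjusted p = 0.184). Without adjustment, 1681 windows (6.57%) had a p under 0.05, 1033 higher (4.04%) and 648 lower (2.53%) in MET_P, and with centred libraries 844 were higher and 878 lower. Without library S30 these windows numbered 3334, of which 47.9% were higher. The libraries did not overlap in 909 windows (3.55%), 595 higher (2.33%) and 314 lower (1.23%), and 614 windows (2.4%) met both conditions. Of the windows that met both conditions, the one with the largest difference in means lay on chromosome 25 at 858296 to 858349 and was assigned by its sites to SSTR5, a somatostatin receptor gene. Its 5 sites averaged 80%, 60.7%, 59.8% and 47.7% in CON_P and 25.9%, 20.3%, 43.8% and 29.9% in MET_P, a difference of -32.1 percentage points. The limma test gave it an unadjusted p of 0.00153 and an adjusted p of 0.757. A window of TNK1, a tyrosine kinase gene (chromosome 19, 27069216 to 27069303, 7 sites), averaged 52.3% ± 20.3 in CON_P and 76.1% ± 6.27 in MET_P. Windows outside annotated genes on chromosome 1 (from 80439263) and chromosome 11 (from 89652933) were 25.7 and 24.5 percentage points higher in MET_P. Those on chromosome 25 (from 1543871) and chromosome 12 (from 32542880) were lower, by differences of -26.8 and -25.8.

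Gene means leaned to higher methylation in MET_P. No gene of 8370 with at least 2 sites passed the threshold (0.0% called). Without adjustment, 591 genes (7.06%) had a p under 0.05, 438 higher (5.23%) and 153 lower (1.83%) in MET_P, and with centred libraries 372 and 200. Over all genes 4964 (59.3%) had the higher mean in MET_P, and the median difference was 0.477 percentage points. The libraries did not overlap at 314 genes (3.75%), 251 higher (3.0%) and 63 lower (0.753%), and 239 of them (2.86%) also had an unadjusted p under 0.05. Without library S30 the genes at an unadjusted p under 0.05 numbered 1033, of which 60.3% were higher. With all 8 libraries, 74.1% of the 591 genes at that p were higher in MET_P. By level, the share was 83.1% under 10% (69 of 83) and 78.9% at 10 to under 30%. It was 74.7% at 30 to under 70% (118 of 158) and 66.2% at 70 to under 90% (90 of 136). At 90% and over it was 73.2%. These shares were not tested against each other.

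ZNF428, a zinc finger gene named after its values were seen, had an adjusted p of 0.0635 by limma, the lowest of the gene test. Its 4 sites averaged 99.1%, 100%, 100% and 100% in CON_P and 95.5%, 93.4%, 95.2% and 96.4% in MET_P. The groups did not overlap, and the difference was -4.65 percentage points. In cows without pregnancy the diet difference of ZNF428 was -0.022.

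By the rule for named genes, 149 of the 5464 genes with at least 5 sites had groups without overlap and an unadjusted p under 0.05 by limma, 120 higher and 29 lower in MET_P, and the 8 with the largest difference in each direction were taken. Their adjusted p lay between 0.607 and 0.680. PAQR6, which encodes a membrane progesterone receptor, had 11 sites on chromosome 3 (14548521 to 14548956). They averaged 24.98%, 24.04%, 23.3% and 36.3% in CON_P and 45.2%, 43.5%, 45.0% and 36.5% in MET_P, a difference of 15.4 percentage points. All 11 sites had the higher mean in MET_P, and the CON_P library S30 and the MET_P library S31 nearly met.

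FAM131A had the largest difference of the 16 named genes, with 16 sites within 74 bp on chromosome 1 (82850302 to 82850375). CON_P stood at 41.0%, 50.0%, 37.7% and 61.5% and MET_P at 74.0%, 65.8%, 70.6% and 62.8%, a difference of 20.7 percentage points. In ZBED3, which encodes a partner of Axin in Wnt signalling, 6 sites on chromosome 10 averaged 60.8%, 53.5%, 65.6% and 56.9% in CON_P and 77.4%, 76.2%, 70.9% and 80.7% in MET_P. ZC3H13, part of the complex that places N6-methyladenosine on RNA, had 20 sites on chromosome 12 at 73.5%, 78.4%, 64.9% and 82.2% in CON_P and 92.9%, 88.7%, 88.0% and 89.7% in MET_P. Here 17 sites were higher and 3 lower. MEX3A, an RNA-binding protein gene, averaged 29.6% ± 8.56 in CON_P and 46.4% ± 6.52 in MET_P over 17 sites. MT3, a zinc-binding metallothionein gene, averaged 63.3% ± 9.28 and 79.5% ± 6.43, CCDC17 47.5% ± 8.19 and 66.1% ± 6.53, and C15H11orf87 34.5% ± 9.15 and 50.1% ± 3.73.

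The 8 genes lower in MET_P follow. TLE1, a Groucho family corepressor gene on chromosome 8 (57536840 to 57624231), averaged 67.5%, 53.4%, 63.4% and 47.6% in CON_P and 36.4%, 42.7%, 45.8% and 45.3% in MET_P over 10 sites, a difference of -15.4 percentage points. RPL3L, a ribosomal protein gene of muscle (chromosome 25, 5 sites), stood at 71.9%, 73.1%, 75.4% and 73.3% in CON_P and at 63.9%, 66.8%, 66.3% and 64.0% in MET_P, with little scatter in either group. EBF2, a transcription factor gene, stood at 27.8%, 29.96%, 25.5% and 22.4% in CON_P and at 20.8%, 19.5%, 18.4% and 16.2% in MET_P. TMEM132C averaged 80% ± 1.04 and 73.3% ± 2.69, and NPDC1 30.6% ± 8.45 and 19.02% ± 2.14. OTOP3, a proton channel gene, averaged 88.5% ± 4.72 and 79.2% ± 5.30, ARHGEF4, a guanine nucleotide exchange factor gene, 53.1% ± 5.73 and 44.5% ± 1.36, and ENSBTAG00000053793 85.6% ± 5.85 and 77.3% ± 2.16.

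**Figure D3:**
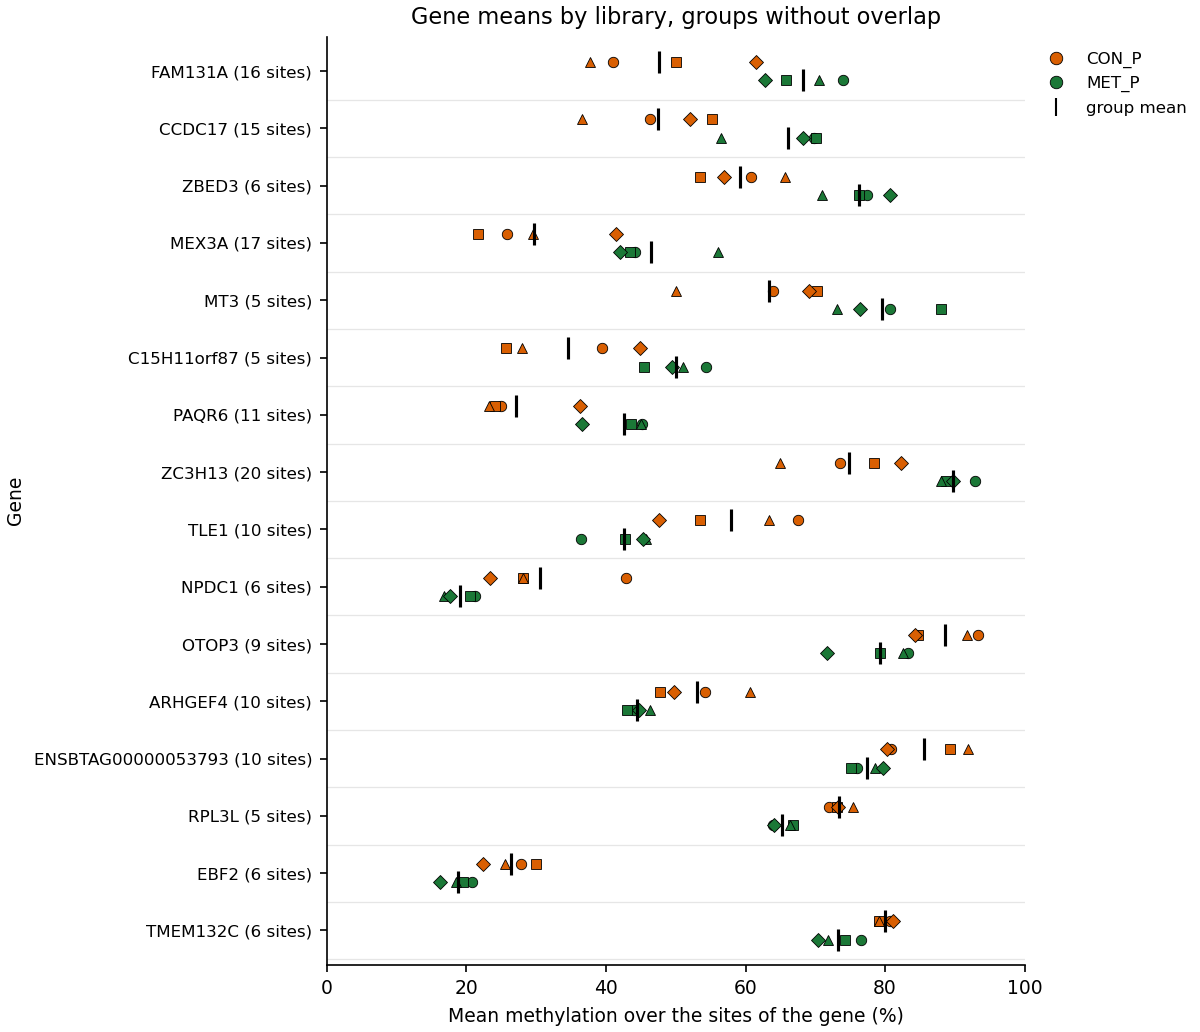
Mean methylation in percent over the sites of the 16 named genes, with 1 symbol per library and a line for each group mean (circle, square, triangle and diamond for S14, S18, S26 and S30 in CON_P and for S15, S19, S27 and S31 in MET_P). The groups do not overlap because the genes were chosen so, and PAQR6 and MEX3A show the closest approach, at 36.3% and 36.5% and at 41.5% and 41.97%.

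In cows without pregnancy, the diet difference had the same direction for 10 of these 16 genes, 7 of the 8 higher and 3 of the 8 lower. Of the 120 eligible genes higher in MET_P, 90 (75.0%) were also higher in MET_noP than in CON_noP, beside 68.1% of all genes with at least 5 sites. Of the 29 lower genes, 10 (34.5%) were also lower, beside 31.9% of all.

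The genes of the pathways and cell types of interest were read from lists. In the methionine and folate cycle, 1 of the 20 genes with at least 2 sites was higher at an unadjusted p under 0.05 and 0 were lower, beside 5.23% and 1.83% of all genes, and the median difference was -0.063 percentage points, beside 0.477 over all genes. The member was FOLR2, a folate receptor of macrophages, at 35.5%, 25.5%, 36.0% and 51.8% in CON_P and 54.3%, 41.3%, 64.2% and 51.1% in MET_P, with overlap. None of the 12 genes of the DNA methylation machinery met the threshold in either direction, and neither did any of the 16 imprinted genes, the 13 stromal genes or the 7 germline genes. Their median differences were -0.148, 1.07, 1.2 and 2.06 percentage points. The SD was lower in MET_P for 15 of 20 methionine and folate genes, 13 of 16 imprinted genes and 6 of 12 methylation machinery genes, beside 67.3% of all genes.

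Of 30 genes of uterine development and receptivity, 6 were higher in MET_P at an unadjusted p under 0.05 and 0 lower, beside 5.23% and 1.83% of all genes, and the median difference was 0.566 percentage points. EMX2, a homeobox gene of the reproductive tract, stood at 5.46%, 10.5%, 11% and 11.5% in CON_P and at 18.7%, 20.2%, 15.1% and 16% in MET_P over 2 sites. WNT5A, a Wnt ligand gene, stood at 65.9%, 69.3%, 66.8% and 69.9% in CON_P and at 76.1%, 74.3%, 71.9% and 70.4% in MET_P over 11 sites. These 2 separated the groups and the other 4 did not. LHX1 and PAX2, transcription factor genes of the Müllerian duct, averaged 24.5% ± 4.23 and 27.6% ± 5.91 in CON_P and 31.9% ± 2.57 and 36.5% ± 5.92 in MET_P. NR2F2, a nuclear receptor gene of the stroma, averaged 13.1% ± 1.02 and 16.1% ± 1.82.

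In the prostaglandin pathway, 0 of 14 genes were higher and 2 lower at an unadjusted p under 0.05, beside 5.23% and 1.83% of all genes, and the median difference was 0.593 percentage points. PTGES, the synthase of prostaglandin E2, stood at 84.3%, 65.2%, 74.3% and 52.6% in CON_P and at 44.1%, 40.0%, 44.9% and 63.3% in MET_P over 5 sites within 23 bp. TBXA2R, the thromboxane receptor gene, stood at 82.9%, 71.4%, 74.8% and 55.6% in CON_P and at 48.2%, 52.2%, 51.6% and 57.5% in MET_P. In both, the groups met at the CON_P library S30 and the MET_P library S31.

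Among 14 epithelial genes 0 were higher and 1 lower at that p, beside the same shares of all genes, PRSS8, the gene of the epithelial protease prostasin, at 24.1% ± 7.18 in CON_P and 13.4% ± 7.04 in MET_P. Among 27 leukocyte genes 2 were higher and 3 lower, beside 5.23% and 1.83% of all genes. The higher mean was in MET_P for 18 of the 27, beside 59.3% of all genes, and the median difference was 0.832 percentage points, while the epithelial median was -1.02. SPI1, a transcription factor gene of myeloid cells, averaged 62.8% ± 4.81 in CON_P and 72.0% ± 3.76 in MET_P over 29 sites, and CD6, a T cell gene, 94.6% ± 1.56 and 97.9% ± 1.07. ITGAL, an integrin subunit gene of leukocytes, averaged 63.3% ± 11.9 and 49.9% ± 3.09, and LAPTM5, a lysosomal protein gene of leukocytes, 21.8% ± 9.16 and 12.2% ± 2.40.

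A further list held 10 genes that the study names for many differing sites. The study chose them on these libraries, so their direction is not independent evidence. Of the 10 genes, 7 were higher in MET_P at an unadjusted p under 0.05 and 0 lower, beside 5.23% and 1.83% of all genes. The adjusted p of the 7 by limma lay between 0.666 and 0.680. The median difference over the 10 was 15.2 percentage points, beside 0.477 over all genes. ATP8B1, a phospholipid flippase gene with 34 sites, stood at 38.9%, 48.6%, 27.9% and 58.2% in CON_P and at 72.6%, 65.9%, 72.5% and 55.0% in MET_P. FHDC1, with 65 sites, stood at 41.0%, 50.2%, 36.1% and 66.5% in CON_P and at 72.0%, 71.3%, 72.7% and 62.2% in MET_P. In both, CON_P library S30 lay above MET_P library S31.

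MTCL1, a microtubule crosslinker gene with 75 sites, stood at 52.9%, 61.7%, 43.9% and 66.0% in CON_P and at 68.5%, 68.9%, 72.4% and 67.9% in MET_P. GPR62, an orphan receptor gene with 62 sites, stood at 34.1%, 33.0%, 25.9% and 37.9% in CON_P and at 51.0%, 49.7%, 38.9% and 43.9% in MET_P. Only MTCL1 and GPR62 of the 10 separated the groups. SOX9, a transcription factor gene of glandular epithelium that is also in the uterine list, averaged 40.7% ± 12.4 and 57.7% ± 7.41, with S30 of CON_P at 59.1%. SPRED3, an inhibitor of Ras signalling, averaged 47.8% ± 11 and 65.9% ± 9.80. RAP1B, a small GTPase gene, stood at 51.2%, 16.4%, 14.5% and 19% in CON_P and at 38.8%, 47.3%, 48.7% and 41.6% in MET_P, and S14 lay above all MET_P libraries. The higher mean was in MET_P at 33 of 34 sites in ATP8B1, 64 of 65 in FHDC1 and 60 of 75 in MTCL1. It was in MET_P at 52 of 160 sites in ADGRB1, 26 of 80 in TSHZ2 and 68 of 140 in UBE2E2. A gene mean averages these same sites, so a direction they share with it is not further evidence. ADGRB1, TSHZ2 and UBE2E2, with 160, 80 and 140 sites, had differences of -4.50, -3.59 and -1.65 percentage points and did not meet the threshold.

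**Figure D4:**
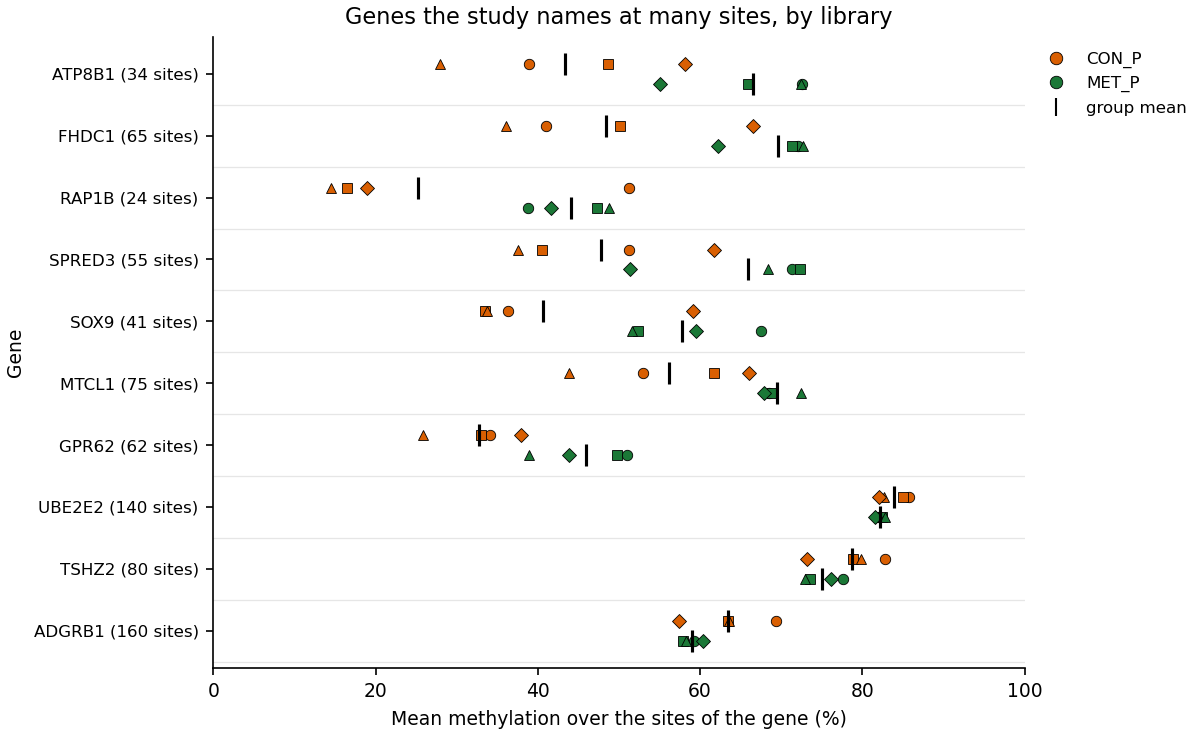
Mean methylation in percent over the sites of the 10 genes that the study names for many sites, drawn as in the plot of the named genes, in order of the difference. MTCL1 and GPR62 separate the groups, while a CON_P library (S30 in ATP8B1, FHDC1, SPRED3 and SOX9, S14 in RAP1B) reaches the MET_P libraries in the other genes that were higher in MET_P.

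Whether the diet difference depended on the outcome was tested over all 16 libraries. For the spread it did before adjustment. The diet difference was -1.83 percentage points with pregnancy and 0.435 without, and their difference of -2.26 had an exact p of 0.0184 (adjusted p = 0.104) and, with the spread recomputed at each permutation, an exact p of 0.0400. By the study's text, mapped CpG calls were higher in MET_P than in CON_P, but lower in MET_noP than in CON_noP. The groups without pregnancy also had more cytobrush samples behind their libraries. The parts of depth and of sample number in this dependence of the spread on outcome were not tested. For mean methylation the diet differences were 0.304 and 1.29 (exact p of the difference 0.368). The limma interaction passed at 2 of 189036 sites, 1 of 25584 windows and 0 of 8370 genes. Without adjustment, 5.33% of sites, 5.54% of windows and 5.40% of genes had an interaction p under 0.05. At 63124677 on chromosome 17, in no annotated gene, CON_P stood at 69.0%, 41.7%, 68.8% and 76.3% and MET_P at 98.0%, 98.9%, 97.5% and 97.2%. Without pregnancy the order was reversed, with 94.2% ± 4.99 in CON_noP and 74.0% ± 5.34 in MET_noP (interaction by limma, adjusted p = 0.0229). The window around it (63124661 to 63124680, 3 sites) averaged 84.7% ± 3.73 and 97.2% ± 0.881 with pregnancy and 96.4% ± 2.66 and 87.7% ± 4.35 without (interaction by limma, adjusted p = 0.0190). In PSD3, which encodes an exchange factor of ARF6, the site at 38936982 on chromosome 27 was at 100% in every CON_P library and at 88.9%, 94.6%, 95.5% and 95.7% in MET_P. It averaged 93.0% ± 1.06 in CON_noP and 99.6% ± 0.893 in MET_noP (interaction by limma, adjusted p = 0.0150). The PSD3 values of CON_P and MET_noP lie at or near the upper limit of 100%. Their depth is unknown, and the interaction was not run with another offset.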

How the data were processed

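RRBS libraries of 8 samples, 4 of CON_P and 4 of MET_P, were compared, and 8 libraries of CON_noP and MET_noP were used for classes and interactions. The authors used Trim Galore for trimming and Bismark for alignment to the build ARS-UCD1.2, merged the runs, and quantified positions with at least 10 reads in SeqMonk. The deposited values are percent methylation per position and library, not normalized between libraries, with a gene name where annotated. Positions at 0% or without a value had been removed by the authors, and read counts were not used here, so no interval for a single percentage was computed. The logistic regression on counts used by the study could not be run on percentages.

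Columns were assigned to groups by the group name above them. The library numbers match no replicate number of the labels, so replicates are named by library. Sites, gene means (at least 2 sites) and means of 1 kb windows (at least 3 sites) were tested as M = log2((percent + 1)/(100 - percent + 1)) with limma 3.58.1 in R 4.3.3, empirical Bayes moderation without trend, Benjamini-Hochberg adjustment over all units tested and a threshold of 0.05. Measures with a single value a library were tested by exact permutation, two-sided (70 arrangements, 35 distinct), with adjustment over 24 comparisons. For the interaction, diets were permuted within outcome. The fits were tested on simulated data. Other tools were Python 3.11.15, matplotlib 3.10.9, pandas 2.3.3, numpy 2.4.6 and data.table (version 1.17.8).

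The comparison, the classes and the gene lists were chosen with earlier results of these data known. Named genes were the 8 in each direction with the largest difference among genes with at least 5 sites, no overlap between groups and an unadjusted p under 0.05, after no gene passed the threshold. Named sites and windows were the 3 in each direction by the same conditions. List members with an unadjusted p under 0.05 and the 10 genes named by the study were also named. PNMT, ATF6, TTC22, ECI2, ZNF428, PSD3 and other genes named for an alternative or an interaction were picked after a look at their values. Alternatives included untransformed percentages, a smaller offset (0.1), a trend in the moderation, centring, all 16 libraries in 1 model, a replicate block, merged strands, sites of 10% to 90%, other class bounds, gaps and windows, and each library left out. The recomputed spread and the spread of gene and window means were added after seeing the data. Some genes are not reported here. Promoters, exons, introns, repeats and sequences were not analysed here, since no genome of the build was used. The 10346 sites on X and 13 mitochondrial sites entered the adjustment over sites but no count.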

Additional observations from a re-analysis of the deposited data

Results flagged for a closer look

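Among 156 groups of 4 libraries, 11 held a library whose gap to the nearest of the others took up most of the range of the group. Chance flags about 1 in 20 groups. In CON_P, library S26 had 46.6% of its sites above 80% methylation. Library S14 was low at EMX2 (5.46%) and ZNF428 (99.1%) and high at RAP1B (51.2%), and S30 was high at PAQR6 (36.3%) and SOX9 (59.1%). In MET_P, library S15 was high in the rest of the chromosome (62.7%). Library S27 was low at CCDC17 (56.4%) and high at MEX3A (56.1%) and RCSD1 (96.8%), and S31 was low at FHDC1 (62.2%).

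The diet difference in spread differed between cows with and without pregnancy in 5 classes of sites, by an exact permutation of diet within outcome. The difference of differences was -2.26 percentage points over all autosomal sites (exact p = 0.0184), -3.84 at 10 to under 30% (exact p = 0.00449) and -4.78 at 30 to under 70% (exact p = 0.0216). It was -2.16 for sites in a gene (exact p = 0.0204) and -2.45 for sites outside a gene (exact p = 0.0139). Each adjusted p over the 24 comparisons was 0.104. These classes share their sites with each other, and the 4 values of a group share their libraries. The study's mapped CpG calls also differed between diets in opposite directions with and without pregnancy. More cytobrush samples stood behind the libraries without pregnancy. The parts of depth and of sample number were not tested.

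The limma interaction of diet and outcome passed at 2 of 189036 sites, on chromosome 17 and in PSD3, and at 1 of 25584 windows, on chromosome 17.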

How the results depend on the processing

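The depth behind each percentage is unknown, and a count of 0 does not show that no site differed. Over all values and named features, 1176 of 1212 alternative values were counted as unchanged. These kept their side of the threshold or, as counts, stayed within 1.5 times. A change of sign in a small difference was not always counted as a change. Mean methylation went from 0.304 to -0.107 without S26, and the share above 20% from 0.335 to -0.712 without S30. Both were counted as unchanged. With an offset of 0.1 percentage points, 270 sites passed, of which 267 had all libraries of a group at 100%, and 2 windows passed, in PPM1F and PDZD2. With sites of 10% to 90% only, 1 site passed, in ATP2B4 (chromosome 16, 1474330), and 6683 had an unadjusted p under 0.05. With trend, 1 gene passed. With at least 5 sites a gene, 389 genes had an unadjusted p under 0.05. Sites, genes and windows at that p numbered 9505 to 18750, 449 to 1033 and 1214 to 3334 with each library left out, in each case most without S30, where 44.3%, 60.3% and 47.9% were higher in MET_P. Past the threshold, the leave-one-out counts were 0 to 0 sites, 0 to 4 genes and 0 to 0 windows, and the 4 genes without S14 were GOT2, RAP1B, ZNF428 and RCSD1. Leaving out a library gave differences of -0.107 to 0.82 for mean methylation, -0.712 to 1.196 for the share above 20% and -2.35 to -1.33 for the spread. The spread difference of sites under 10% (-0.102) ran from -0.442 to 0.287 over the libraries left out, the latter without S31. The mean of sites at 70 to under 90% reached 1.70 (exact p = 0.0286) without S18. Leaving out a library leaves a mean of 2 libraries as the reference of its group, which widens that group's spread by construction. Recomputed at each permutation, the spread difference of -1.83 had an exact p of 0.0571.

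Library numbers fall in sets with 1 library of each group. With these sets as a replicate block, the spread difference of -1.83 had an exact sign-flip p of 0.125, the smallest that 4 pairs allow. Deviations of the MET_P and CON_P libraries of a set correlated at 0.048, -0.0054, -0.0031 and -0.144. Libraries of different sets were not compared in this way, so these values cannot show whether the sets matter. The main tests did not take the numbers as pairs. The block gave 10089 sites, 546 genes and 1517 windows at an unadjusted p under 0.05 and 0 past the threshold.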
